A study of Homo sapiens with 9 samples.

Results

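Heme biosynthesis is the pathway that joins glycine and succinyl-CoA into 5-aminolevulinic acid, builds 4 pyrrole rings into protoporphyrin IX and inserts iron to give heme. The 7 enzymes of it reported here, ALAS1, ALAD, UROS, UROD, CPOX, PPOX and FECH, were found by gene name among the 58336 genes of the deposited tables. All 7 had a row, and all 7 passed the filter on low counts that left 13845 genes to test. The synthase step lies in mitochondria and is the rate-limiting one in most cells, where heme holds back the synthase. The middle steps run in the cytosol, and the last 3 enzymes, CPOX, PPOX and FECH, lie in or at mitochondrial membranes. In photodynamic therapy with 5-aminolevulinic acid, cells are given the pathway's own intermediate beyond the synthase step. Protoporphyrin IX then collects ahead of the iron insertion by FECH and acts as the photosensitiser under red light.

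The study measured RNA of HaCaT cells, keratinocytes of human skin that grow as an immortalised line, by paired-end sequencing. Low-dose treatment, called ALA-PDT in the labels, combined 5-aminolevulinic acid at 0.5 mmol per litre with red light (635 ± 5 nm, 3 J per square centimetre). RNA was taken after 12 h or 48 h of further incubation, in 3 samples each, and 3 control samples were given no treatment. The 9 libraries of the tables carry the names A1 to A3, B1 to B3 and Nc1 to Nc3. Nc was read as control, and the stems A and B as the 6 ALA-PDT libraries. The names tie neither stem to 12 h or 48 h, so the treated libraries are named by stem and no time is given to them. The labels describe the times as separate experimental tries and give no time or try for the control. Differences between A and B can therefore be of time or of try, which cannot be told apart. No library had the acid alone or the light alone, so the parts of the treatment cannot be told apart either. Nothing states whether the libraries of a group came from separate cultures, so the p-values measure the spread between these libraries, which may be technical.

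Library totals ran from 15337296 to 18028419 counts. The 9 keratinocyte markers summed to between 78237 and 88794 counts in A, between 54063 and 59187 in B and between 56973 and 67016 in control. SFN led these sums, and the markers did not move as 1. By edgeR's test (adjusted p under 0.05), 4 of 9 were higher and 0 lower in A over control, where 2.72% of all genes were called. TP63 (log2 fold change -0.23) and EPCAM (-0.089) lay below 0 there, not called. In B over control 0 were higher and 2 lower (13.4% of all genes called), and in B over A 0 and 6 (18%). A further set of transcripts split the libraries across the groups. The 11 red cell markers, mainly the globin HBB, summed to 602, 1246 and 7 counts in A1, A2 and A3, to 7, 8 and 8395 in B1, B2 and B3, and to 7338, 7468 and 3 in Nc1, Nc2 and Nc3. The 8 leukocyte markers summed to 91, 76 and 42 counts in A, to 31, 63 and 361 in B and to 334, 280 and 26 in control. ALAS2, the synthase of red cell precursors, had 4, 0 and 0 counts in A, 0, 2 and 23 in B and 19, 16 and 0 in control. For the enzymes called, for UROD and for the genes around the pathway, the fits are also given without the 5 libraries that held over 500 red cell counts. The permutation tests, shares and correlations are given over all 9 libraries. Of the 5 endothelial markers, CDH5 had 41, 28 and 24 counts in A and 185, 230 and 206 in B, against 52, 31 and 45 in control, and PECAM1, VWF, KDR and TEK had at most 22 in any library. The fibroblast markers summed to between 26 and 193 in A, 37 and 63 in B and 47 and 69 in control. Among them, COL3A1, DCN and LUM had 27, 11 and 9 counts in A1 and 31, 11 and 14 in A2, and 0 in every other library. COL1A1 and COL1A2 had counts in all 9 libraries, and PDGFRA and PDGFRB had at most 7 in any. The source of these transcripts was not tested. The melanocyte markers summed to between 17 and 27 counts in A, 43 and 46 in B and 14 and 23 in control. PMEL led these sums, with 15, 26 and 16 counts in A and 43, 38 and 42 in B, against 11, 18 and 22 in control. It was called higher in B over control (adjusted p = 0.0346 by edgeR). The melanocyte enzyme TYR was at 0 in all 9 libraries.

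The levels of the 7 messenger RNAs spanned a wide range in FPKM, fragments per kilobase of listed gene length, scaled by library. UROD stood highest, at 69.6 ± 14.0 FPKM in A, 49.5 ± 7.51 in B and 61.6 ± 15.2 in control (SD, n = 3 each). PPOX stood lowest, at 3.03 ± 0.345 FPKM in A, 3.12 ± 0.632 in B and 2.75 ± 0.288 in control. In all 3 groups the mean levels ran UROD, ALAS1, CPOX, UROS, ALAD, FECH and PPOX from high to low. Neighbours in this order whose ranges overlapped were ALAD and FECH in B, and ALAS1 and CPOX as well as ALAD and FECH in control. The order also depended on the length used. With the longest GENCODE release 29 transcript in place of the listed length, an alternative added after the data were seen, CPOX stood above ALAS1 in control and UROS close below it.

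**Figure D1:**
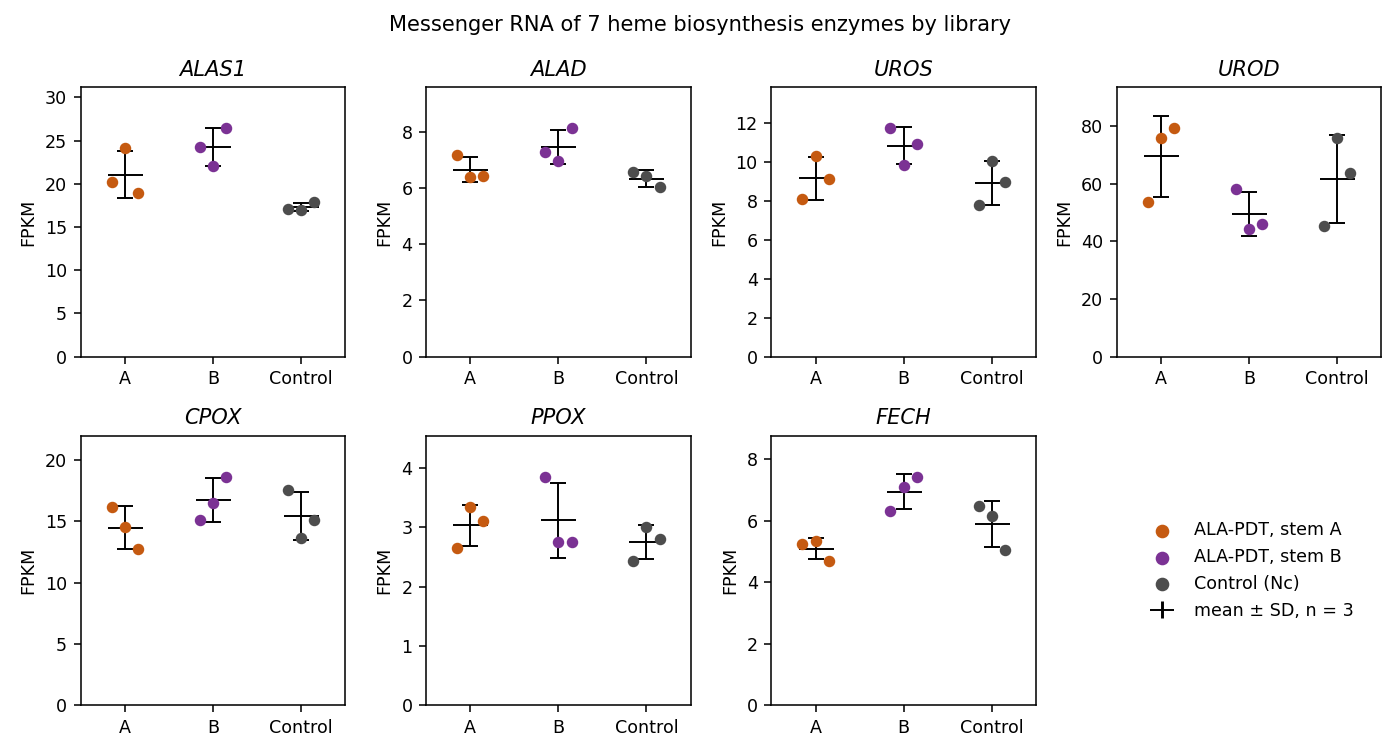
Level of each of the 7 enzymes in every library, in FPKM on a linear axis from 0, with the treated stems A and B left of the control and the mean ± SD of 3 libraries as black bars. All 6 ALA-PDT libraries lie above the 3 control libraries for ALAS1, between 18.9 and 26.4 FPKM against 17.0 to 17.8 FPKM, and the 3 B libraries lie above the 3 A libraries for FECH.

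ALAS1, the synthase found in all cells (ENSG00000023330, chromosome 3, 52198086 to 52214327, plus strand, GRCh38), was the member whose treated libraries all lay above the control libraries. It had 20.2, 24.1 and 18.9 FPKM in A1, A2 and A3 and 24.3, 22.1 and 26.4 FPKM in B1, B2 and B3, against 17.1, 17.0 and 17.8 FPKM in Nc1, Nc2 and Nc3. The A and B libraries overlapped with each other, and the control values lay close together. How many of all genes had groups lying apart in this way, here or for the genes below, was not counted. The counts behind these levels were 878, 904 and 688 in A, 996, 1014 and 1275 in B and 771, 669 and 759 in control. ALAS1 rose in B over control 1.41-fold (log2 fold change 0.50, SE 0.122, adjusted p = 0.0163 by edgeR's quasi-likelihood test with Benjamini-Hochberg adjustment over all genes tested). In bulk RNA, a change in the number of cells of a type and in the RNA per cell cannot be told apart. In A over control its log2 fold change was 0.30 (SE 0.123, adjusted p = 0.171 by edgeR), which did not pass the threshold of 0.05. ALAS1 passed in a fit of A and control alone with the library number as a block (log2 fold change 0.27, SE 0.0760, adjusted p = 0.0149 by edgeR). That fit was added after the data were seen. Its pairing is a hint from these same data and not from the labels, so this pass is no independent support. That fit called 4601 of 13216 genes tested (34.8%, with 16.5% higher and 18.3% lower). The same 6 libraries without the block gave 272 calls and an adjusted p of 0.210 for ALAS1, and the 9 libraries gave 376.

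For both stems together over control, ALAS1 rose 1.32-fold (log2 fold change 0.40, SE 0.108, adjusted p = 0.0448 by edgeR). This value lies close to the threshold and was not below it in 13 of 17 alternatives, where the log2 fold change ran from 0.25 to 0.43. It was not called without Control replicate 1 (adjusted p = 0.180), without Control replicate 2 (0.0778), without Control replicate 3 (0.129), without A replicate 2 (0.120), without A replicate 3 (0.0676), without B replicate 1 (0.0700) or without B replicate 3 (0.115). An exact permutation test of the FPKM, 6 ALA-PDT against 3 control libraries, gave p = 0.0238 (two-sided), the smallest value that its 84 permutations can give. It was run on each of the 7 members and is not adjusted for these 7 tests, and the other 6 had p between 0.119 and 0.905 by the same exact test. The mean was 22.7 ± 2.81 FPKM in the 6 ALA-PDT libraries and 17.3 ± 0.465 FPKM in the 3 control libraries (SD).

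The call of ALAS1 in B over control held in 15 of 18 alternatives. It was lost without Control replicate 3 (log2 fold change 0.52, adjusted p = 0.0540 by edgeR) and without B replicate 3 (0.44, adjusted p = 0.0987). In both of these fits the log2 fold change stayed close to the 0.50 of all 9 libraries. Over the 18 alternatives it ran from 0.32 to 0.56. Among the 4 libraries with few red cell counts, ALAS1 stood at 18.9 FPKM in A3, at 24.3 and 22.1 FPKM in B1 and B2 and at 17.8 FPKM in Nc3. With these 4 alone, an alternative added after the data were seen, the log2 fold change of B over control was 0.39 and the adjusted p 0.919, where the lone A and control libraries are assumed to vary as the B libraries do.

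The promoter window of ALAS1 is shown because the synthase was called in the treated cells and because it alone of the 6 members with a window in the RefSeq table holds the NRF1 motif, named for a transcription factor of nuclear genes for mitochondria. The window runs from 250 bases before to 50 bases after the annotated start (chr3:52197833-52198132, plus strand, GRCh38.p14, RefSeq), and capitals mark motif matches on either strand.
ALAS1 promoter: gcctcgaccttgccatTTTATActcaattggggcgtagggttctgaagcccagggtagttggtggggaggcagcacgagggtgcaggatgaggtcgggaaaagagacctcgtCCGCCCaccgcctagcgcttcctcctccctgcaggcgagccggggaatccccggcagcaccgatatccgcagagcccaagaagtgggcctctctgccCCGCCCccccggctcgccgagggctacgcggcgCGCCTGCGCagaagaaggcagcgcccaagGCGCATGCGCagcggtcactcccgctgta
The letters GCGCANGCG were found here at position -8 from the start and, overlapping each other on opposite strands, at positions 21 and 22. They occur in 7.52% of 35116 promoter windows of this length. The GC box GGGCGG was found at -138 and -41, and the TATA box letters TATAAA at -234 on the opposite strand. A match is a description of letters and not of a bound site.

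Of the genes whose levels followed ALAS1 most closely over the 9 libraries, the cell cycle kinase CDK2 had the highest correlation (Pearson r = 0.98 of log2 CPM), followed by the ubiquitin ligase scaffold CUL7 (r = 0.97) and the transcription factor NFE2L1 (r = 0.96). These were the top 3 of 9722 genes whose mean reached 100 counts. The libraries share their stem, depth and composition, so these values are a description.

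ALAD, which joins 5-aminolevulinic acid into the pyrrole porphobilinogen (ENSG00000148218, chromosome 9, 113386317 to 113401333, minus strand), had 7.16, 6.37 and 6.42 FPKM in A1, A2 and A3 and 7.26, 6.96 and 8.12 FPKM in B1, B2 and B3, against 6.57, 6.41 and 6.02 FPKM in Nc1, Nc2 and Nc3. The B libraries all lay above the control libraries and the A libraries overlapped both. The log2 fold change was 0.24 in B over control (SE 0.115, adjusted p = 0.170 by edgeR) and 0.084 in A over control (adjusted p = 0.689), so neither was called. The gene most like ALAD over the 9 libraries was the death receptor TNFRSF10B (r = 0.97).

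UROS, which closes the ring as uroporphyrinogen III (ENSG00000188690, chromosome 10, 125784980 to 125823248, minus strand), had 8.10, 10.3 and 9.13 FPKM in A and 11.7, 9.86 and 10.9 FPKM in B, against 7.80, 10.1 and 8.97 FPKM in control. B2 lay below Nc2, so B and control overlapped. Its log2 fold change in B over control was 0.29 (SE 0.132, adjusted p = 0.160 by edgeR). Its closest gene was the lysosomal protease CTSH (r = 0.99).

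UROD, which removes carboxyl groups from the ring in the cytosol (ENSG00000126088, chromosome 1, 45012147 to 45015575, plus strand), varied widely within groups. It had 53.5, 76.0 and 79.3 FPKM in A1, A2 and A3 and 58.1, 44.3 and 46.1 FPKM in B1, B2 and B3, against 45.5, 75.8 and 63.7 FPKM in Nc1, Nc2 and Nc3. The lowest A and control libraries, A1 and Nc1, lay within the range of B. In B over A its log2 fold change was -0.50 (SE 0.187, adjusted p = 0.0772 by edgeR), short of the threshold. It passed in 5 of 18 alternatives, with adjusted p 0.0110 after a trend on GC content and length was removed from each library, 0.00667 with no filter on low counts and 0.0298 with the A and B libraries alone. With A3, B1, B2 and Nc3 alone it did not pass (-0.63, adjusted p = 0.357). In B over control the log2 fold change was -0.31 (adjusted p = 0.298), and it passed with the trend removed (-0.44, adjusted p = 0.0303). The libraries differed on GC content. Of 5 equal groups of genes by GC content, the lowest ran from -0.26 (B3) to 0.43 (Nc1) around its mean level and the highest from -0.29 (Nc1) to 0.30 (A2), as medians on the log2 scale, and the longest transcript of UROD has 52.9% GC.

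CPOX, which oxidises coproporphyrinogen III at the mitochondrial membranes (ENSG00000080819, chromosome 3, 98521132 to 98593723, minus strand), had 16.2, 14.5 and 12.7 FPKM in A and 15.1, 16.5 and 18.6 FPKM in B, against 17.5, 13.6 and 15.1 FPKM in control. The 3 groups overlapped. Over the 9 libraries it ran against UROD, with a Pearson r of -0.93 of their log2 levels, as a description. From start to end, introns included, CPOX overlaps CLDND1 on the same strand by 1935 bases, and the mean of CLDND1 was 987 counts. How much of this overlap lies in exons was not counted. How shared bases were counted is not stated, so the counts of CPOX are uncertain. STARD7, a lipid carrier of mitochondria, was the gene most like CPOX (r = 0.98).

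PPOX, which oxidises protoporphyrinogen to protoporphyrin IX (ENSG00000143224, chromosome 1, 161166410 to 161178013, plus strand), had 2.66, 3.34 and 3.10 FPKM in A and 3.85, 2.76 and 2.75 FPKM in B, against 2.44, 3.01 and 2.81 FPKM in control. Its counts ran from 200 to 287. B1 was the highest of the 9 and the groups overlapped. From start to end, introns included, PPOX overlaps B4GALT3 on the opposite strand by 6659 bases, and the mean of B4GALT3 was 876 counts. How much of this overlap lies in exons was not counted. The strand setting is not stated, so reads from any exon bases shared with B4GALT3 cannot be told apart. The gene most like PPOX was the ubiquitin ligase subunit RNF123 (r = 0.97).

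FECH, which completes heme by adding iron and itself holds an iron-sulfur cluster (ENSG00000066926, chromosome 18, 57548283 to 57586772, minus strand), separated the treated stems. It had 6.31, 7.11 and 7.42 FPKM in B1, B2 and B3, against 5.24, 5.33 and 4.70 FPKM in A1, A2 and A3. The control libraries Nc1, Nc2 and Nc3 had 6.48, 6.15 and 5.04 FPKM. Every B library was above every A library, and the control libraries overlapped with both stems. FECH was 1.36-fold higher in B than in A (log2 fold change 0.45, SE 0.131, adjusted p = 0.0276 by edgeR). Its log2 fold change was -0.20 in A over control (SE 0.132, adjusted p = 0.386) and 0.25 in B over control (SE 0.130, adjusted p = 0.217), so neither stem was called against control. The call in B over A held in 13 of 18 alternatives. It was lost without A replicate 2 (adjusted p = 0.0568), A replicate 3 (0.137), B replicate 2 (0.0632) or B replicate 3 (0.109). It was also lost with A3, B1, B2 and Nc3 alone (log2 fold change 0.52, adjusted p = 0.371). The gene most like FECH was SPIN3 (r = 0.97).

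The window of FECH is shown because it was the member called between the stems (chr18:57586653-57586952, minus strand, GRCh38.p14, RefSeq, read along the gene, capitals marking motif matches).
FECH promoter: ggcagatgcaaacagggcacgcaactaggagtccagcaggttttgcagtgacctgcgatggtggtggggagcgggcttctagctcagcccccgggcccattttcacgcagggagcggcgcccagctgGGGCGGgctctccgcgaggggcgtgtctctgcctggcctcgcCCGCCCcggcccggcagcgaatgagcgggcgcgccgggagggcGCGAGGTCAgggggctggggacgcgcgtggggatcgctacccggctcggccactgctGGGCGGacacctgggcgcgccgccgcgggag
It holds the core of the antioxidant response element, TGACNNNGC, on the opposite strand at position -38, and GC boxes at -123, -81 and 19. The core was found in 13.3% of all windows and in no other of the 6 members, and the GC box in 45.0% of all windows and in all 6 members. Of the other letters searched on both strands, the GATA motif AGATAA (10.3% of windows) was found in CPOX and PPOX, the forkhead motif TGTTTAC (3.42%) in CPOX, and the cAMP response element TGACGTCA (1.85%) and the E-box CACGTG (7.26%) in none of the 6. TATAAA occurred in 11.5% of windows.

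Across all genes, 2.72% of the 13845 tested were called in A over control (1.76% higher and 0.953% lower) and 13.4% in B over control (6.12% higher and 7.24% lower). In B over A 18% were called (8.79% higher and 9.25% lower), and for both stems over control 4.99% (1.39% higher and 3.6% lower). For B over control, B over A and both stems over control these splits moved with the scaling, and for A over control 64.9% of the genes called were higher, against 63.8% with library totals. Of the genes called, 45.8% were higher in B over control, against 60.4% when libraries were scaled by their totals. The same shares were 48.7% and 62.8% in B over A, and 27.8% and 65.5% for both stems over control, where removing the trend on GC content and length gave 42.8%. Against this background, 0 of 7 enzymes were called in A over control. In B over control, in B over A and for both stems over control, 1 of 7 was called each time. An unadjusted p under 0.05 by edgeR was reached in A over control by 1 of 7, and by 3123 of the 13845 genes tested. DESeq2's test and limma called 0 of 7 there, and 794 and 226 of all genes tested. With so few members called, these shares are not a result about the pathway as a group.

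**Figure D2:**
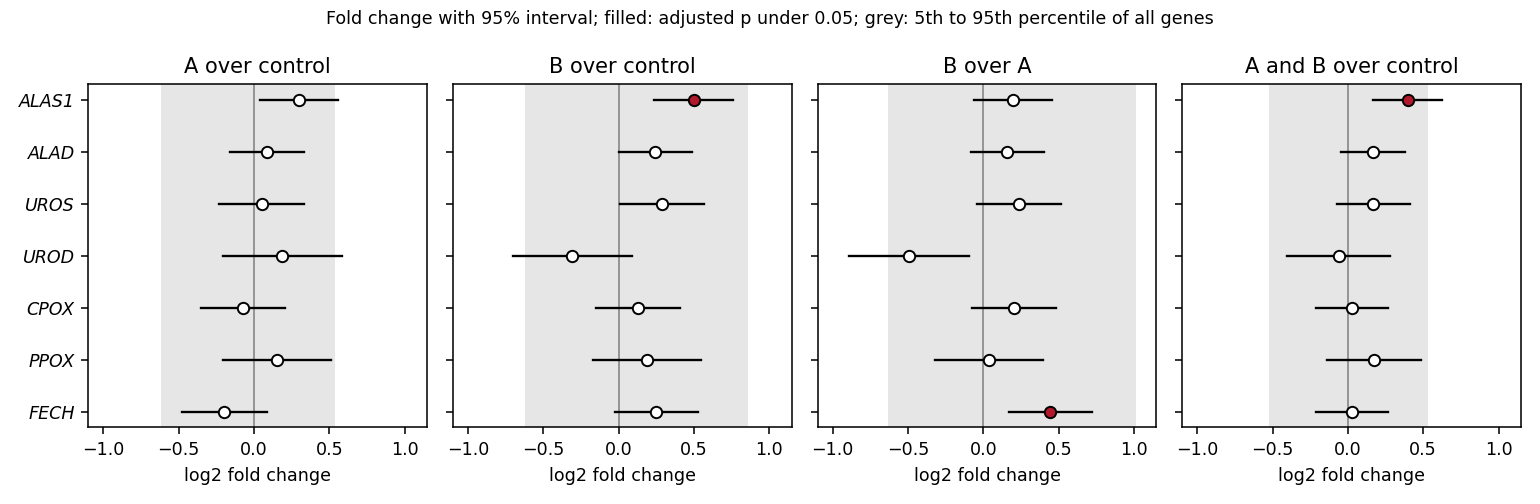
Log2 fold change of each enzyme in the 4 comparisons (horizontal axis), with 95% intervals derived from edgeR's F statistic, filled where the adjusted p was under 0.05, over a grey band from the 5th to the 95th percentile of all tested genes. All 28 values lie inside the band of their comparison, and the filled points are ALAS1 in B over control, FECH in B over A and ALAS1 for both stems over control.

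The intervals in the plot of fold changes show how much could have gone unseen. For the members that were not called, the 95% interval of A over control reached 0.58 for UROD and -0.48 for FECH, and that of B over control reached -0.70 for UROD and 0.57 for UROS. The median log2 fold change of the 7 enzymes was 0.084 in A over control, 0.24 in B over control, 0.20 in B over A and 0.16 for both stems over control. The medians of all genes tested were 0.0088, -0.0020, -0.021 and 0.027 in the same comparisons. Both comparisons against control share the 3 control libraries.

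**Figure D3:**
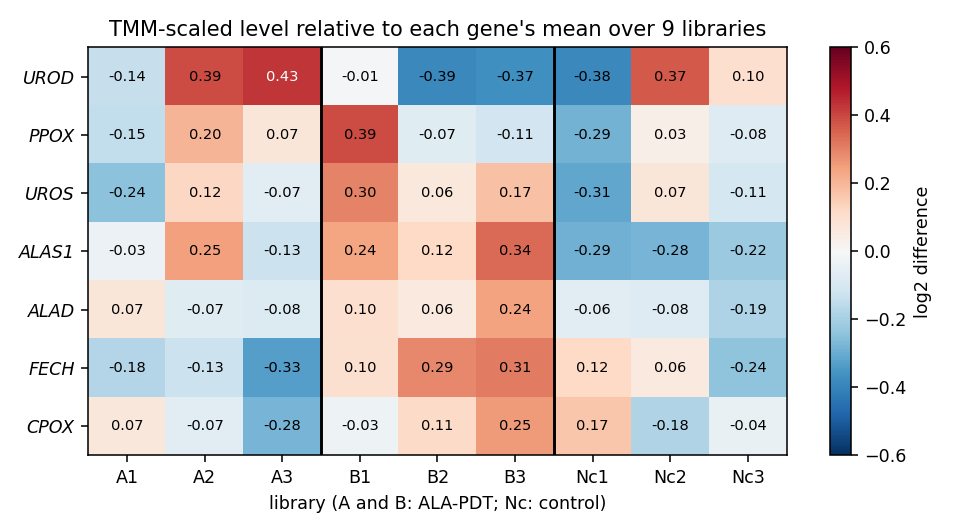
Scaled level of each enzyme in each library, as the log2 difference from that enzyme's mean over the 9 libraries, with the treated libraries left of the control. ALAS1 lies between -0.29 and -0.22 in the control libraries, and UROD and CPOX take opposite signs in 8 of the 9 libraries.

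The make-up of the pathway's messenger RNA was also described by library. The FPKM of the 7 enzymes summed to 129 ± 14.2 in A, 119 ± 8.60 in B and 118 ± 14.4 in control, sums led by UROD. Without UROD the sums were 59.5 ± 4.51 in A, 69.3 ± 4.55 in B and 56.6 ± 1.10 in control. The share of ALAS1 in the 7 was 18.4 ± 2.71% in the 6 ALA-PDT libraries and 14.8 ± 1.83% in the 3 control libraries (SD), with p = 0.0952 by an exact two-sided permutation test over libraries, not adjusted for the 7 shares tested. The other 6 shares had larger p by the same exact test, between 0.405 and 0.833. The ratio of ALAS1 to FECH, the enzymes at the start and the end of the pathway, was 3.85, 4.53 and 4.02 in A and 3.84, 3.11 and 3.56 in B, against 2.64, 2.76 and 3.54 in control. This ratio was chosen after its values were seen and has no test. All A libraries lay above the control libraries, while B2 lay below Nc3.

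Genes around the pathway were taken from fixed lists. Of all genes tested, 2.72% were called in A over control and 13.4% in B over control. The share was 18% in B over A and 4.99% for both stems over control. Of 16 tested genes of the mitochondrial steps around heme synthesis, none was called in A over control, and the succinyl-CoA ligase subunit SUCLA2, whose enzyme handles a substrate of the synthase, was lower in B over control (log2 fold change -0.77, adjusted p = 0.00879 by edgeR). It had 4.12, 2.61 and 3.30 FPKM in A and 2.66, 3.22 and 2.21 FPKM in B, against 5.21, 4.22 and 4.53 FPKM in control, with no overlap between treated and control libraries. For both stems over control SUCLA2 was the 1 gene of this list called (-0.62, adjusted p = 0.0311). In B over A SUCLG2, the subunit that takes the place of SUCLA2 in the other form of the enzyme, was higher (0.60, adjusted p = 0.0264), named after its value was seen. CLPX and LONP1, of the mitochondrial proteases that act on ALAS1, were not called, with log2 fold changes of -0.33 and 0.26 in B over control and -0.26 and 0.23 in A over control. The 11 genes of iron-sulfur cluster assembly gave no call in any of the 4 comparisons by edgeR. The 8 genes of heme use in mitochondria gave none against control, and in B over A the complex II subunit SDHD was higher (0.51, adjusted p = 0.00889) and the heme A enzyme COX10 lower (-0.39, adjusted p = 0.0273), both named after their values were seen.

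Among 6 tested regulators tied to ALAS1, EGR1, an immediate early transcription factor, stood far higher in A than in the other libraries. It had 54.0, 60.1 and 58.9 FPKM in A and 6.10, 5.44 and 6.93 FPKM in B, against 8.47, 6.69 and 7.24 FPKM in control. EGR1 rose in A over control (log2 fold change 2.96, SE 0.133, adjusted p = 2.16e-09 by edgeR) and was lower in B than in A (-3.23, adjusted p = 6.85e-10). The B libraries overlapped with the control libraries. The deacetylase SIRT1 fell in B over control (-0.67, adjusted p = 0.0188) and for both stems over control (-0.59, adjusted p = 0.0353), where EGR1 was called higher (1.35, adjusted p = 1.51e-05). NRF1 was not called, at 0.16 in A over control and 0.059 in B over control. The other 5 genes of this list, PPARGC1A, NR1I2, NR1I3, NR1H4 and HNF4A, had too few counts to be tested.

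Of 11 genes of heme breakdown and heme sensing, 2 rose and 1 fell in A over control, where 2.72% of all genes were called. MAFG and MAFK, small MAF partners of BACH1 and NRF2, rose (0.52, adjusted p = 0.0432, and 0.62, adjusted p = 0.0355, by edgeR), and NR1D2, a heme-binding nuclear receptor, fell (-1.25, adjusted p = 0.000952). NR1D2 had 1.99, 1.66 and 1.54 FPKM in A and 2.73, 2.75 and 2.31 FPKM in B, against 5.18, 3.43 and 3.87 FPKM in control, and it also fell in B over control (-0.67, adjusted p = 0.0168). The biliverdin reductase BLVRA rose in B over control (0.42, adjusted p = 0.0225). For both stems over control NR1D2 (-0.96, adjusted p = 0.00635) and NFE2L2, the gene of NRF2 (-0.45, adjusted p = 0.0385), fell. In B over A, 2 genes were higher, BLVRA (0.42) and NR1D2 (0.58), and 3 were lower, MAFK (-0.56), HMOX1 (-0.58) and HMOX2 (-0.50), the heme oxygenases being named after their values were seen. HMOX1 had 3.05, 3.58 and 3.62 FPKM in A and 2.36, 2.23 and 2.25 FPKM in B, against 2.38, 2.36 and 2.75 FPKM in control. It was not called in A over control (0.46, adjusted p = 0.121) or in B over control (-0.12, adjusted p = 0.675).

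Of 8 tested carriers of 5-aminolevulinic acid, porphyrins and heme, 1 was called in A over control and 2 in B over control. The shares of all genes called there were 2.72% and 13.4%. With so few genes called, these counts are not a result about the carriers as a group. The taurine and 5-aminolevulinic acid carrier SLC6A6 rose in A (0.48, adjusted p = 0.0488 by edgeR). The heme transporter SLC48A1 rose in B (0.44, adjusted p = 0.0239) and the exporter FLVCR1 fell in B (-0.56, adjusted p = 0.0171). In B over A, SLC6A6 (-0.49) and FLVCR1 (-0.44) were lower, and ABCG2 (0.48, adjusted p = 0.0340) and ABCB6 (1.34, adjusted p = 0.0265), which carry porphyrins, were higher. ABCG2 and ABCB6 were named after their values were seen, and ABCB6 had 19, 27 and 22 counts in B and 6, 10 and 7 in A. For both stems over control none of the 8 was called by edgeR.

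Over these 6 lists, the fit of A and control alone with the block on the library number called 11 genes higher and 15 lower, the 5 called with 9 libraries included. That fit, added after the data were seen, called 34.8% of all genes. Among the added ones, SUCLA2 (log2 fold change -0.49), SIRT1 (-0.52), CLPX (-0.29), LONP1 (0.21), HMOX1 (0.44) and ABCG2 (-0.49) passed in A over control by edgeR. Without the 5 libraries with red cell counts, 0.208% of 14408 genes were called in A over control, 0.396% in B over control, 3.19% in B over A and 0.0902% for both stems over control. Of the list genes called with 9 libraries, 2 of 5 were then called in A over control, 0 of 6 in B over control, 1 of 13 in B over A and 1 of 5 for both stems over control, and all of these list genes kept the sign of their fold change. The calls that held were EGR1 in A over control (3.04, adjusted p = 5.09e-14), in B over A (-3.35, adjusted p = 5.61e-29) and for both stems (1.36, adjusted p = 0.00880), and NR1D2 in A over control (-1.31, adjusted p = 0.0430).

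**Figure D4:**
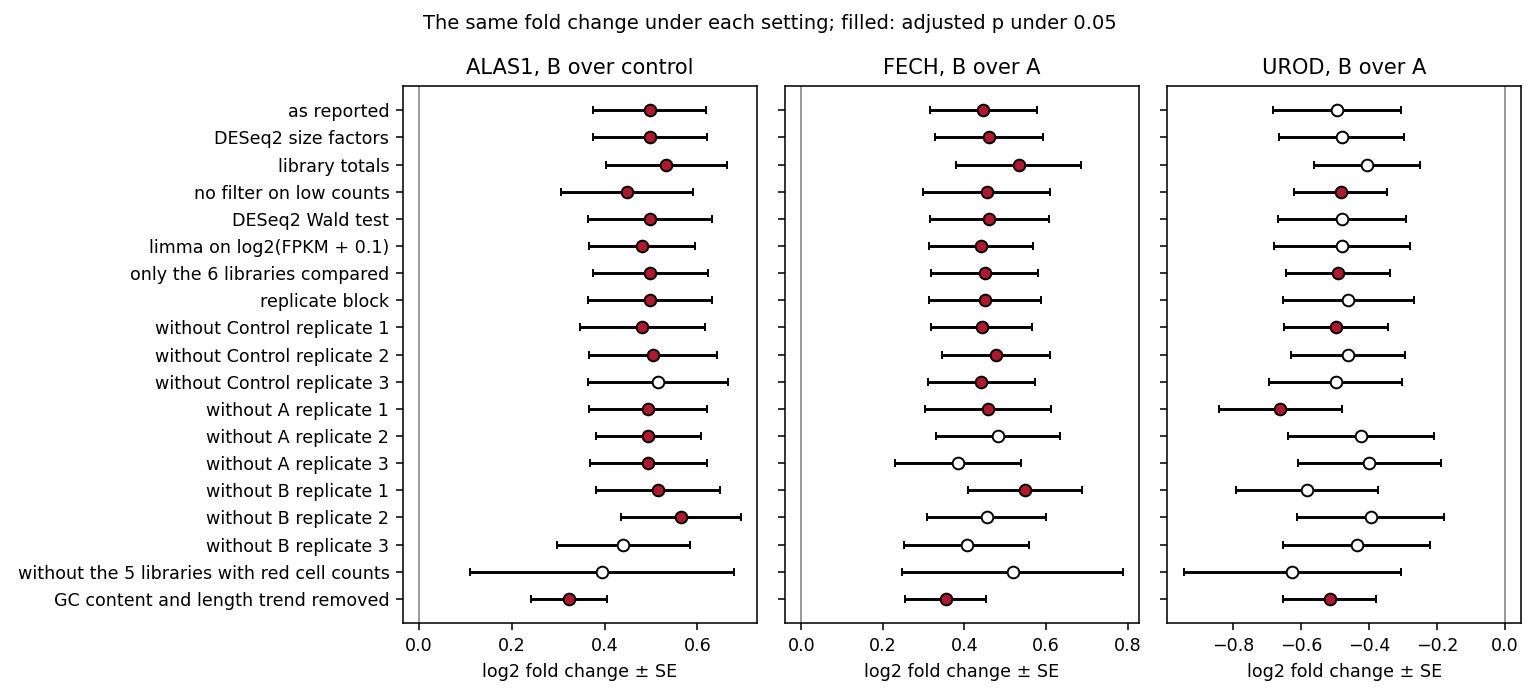
Log2 fold change ± SE (horizontal axis) of ALAS1 in B over control, of FECH in B over A and of UROD in B over A, as reported in the top row and under each other setting below it, filled where the adjusted p was under 0.05. The direction was the same throughout, and filled points number 15 of 18 alternatives for ALAS1, 13 of 18 for FECH and 5 of 18 for UROD.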

How the data were processed

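The values come from 2 deposited tables. The authors deposited whole-number counts per gene and library with no normalization, and FPKM values. Dividing each count by the listed gene length and by 1 constant per library returned the deposited FPKM, with relative differences of at most 2.74e-13. The constants were 0.936 to 1.07 times the library totals, so the FPKM include a scaling of the libraries by a method that is not stated. Per the submitters' processing notes, HISAT2, StringTie and FastQC were used with the build GRCh38. Not given in the sources used here are versions, annotation, strand setting and how shared reads were treated. Every column of a library was used.

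Counts were tested with edgeR 4.0.16 in R 4.3.3 (TMM scaling, filterByExpr by group, quasi-likelihood fit of all 9 libraries without covariates). Calls were made at a Benjamini-Hochberg adjusted p under 0.05 over all 13845 genes tested, and fold changes are given as log2 with edgeR's SE. Each member had at least 200 counts in every library. How much of each SE came from counting error was not worked out. The alternatives were DESeq2 1.42.0 (its size factors and its test), limma 3.58.1 on log2(FPKM + 0.1), library totals, no filter, the 6 libraries compared, a block on the library number, leaving out each library, and offsets for GC content and length (splines with 4 degrees of freedom, longest GENCODE release 29 transcript, known for 99.9% of genes). The main edgeR fit was tested on simulated counts with known changes in A over control. The alternatives were not tested in this way. Permutation tests and motif searches used Python 3.11.15 with NumPy 2.4.6, SciPy 1.17.1 and pandas 2.3.3, and plots matplotlib 3.10.9.

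The pairing of libraries rests on the numbers in the column names. Deviations from group means correlated at 0.81, 0.58 and 0.49 between A and control libraries of the same number, at -0.52, -0.59 and -0.31 between B and control, and at -0.49, -0.60 and -0.34 between B and A. By a rule of over 0.1 in every pair, the numbers were taken to pair A with control and not B with either. Libraries of different numbers also correlated, at up to 0.61 (A1 with B2), above 2 of the 3 same-number pairs of A and control, so the pairing is a hint from the data and not from the labels.

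The 7 members, the lists and the tests were chosen with earlier results of these data known. The named genes are the members, list genes called against control (at most 5 per list and comparison), and the genes of closest pattern, by Pearson correlation of log2 CPM (prior count 2) among genes whose mean reached 100 counts. List genes called only in B over A are named as exceptions. Promoter sequences are RefSeq's (GRCh38.p14), and 6 of 7 members had 1 or more windows.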

Additional observations from a re-analysis of the deposited data

Results flagged for a closer look

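FECH differed between the treated stems. Its log2 fold change in B over A was 0.45 (SE 0.131, adjusted p = 0.0276 by edgeR's quasi-likelihood test), with 3 of 3 B libraries above all A libraries. This is the test of the difference between B over control (0.25) and A over control (-0.20), since both use the same control libraries. No cause of it was tested.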

How the results depend on the processing

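These alternatives moved the counts of genes called. In A over control, where 376 were called, no filter on low counts gave 992, DESeq2's test 794, limma on FPKM 226, the replicate block over 9 libraries 244, removal of the GC and length trend 584, the 4 libraries with few red cell counts 30, and A and control alone 4601 with the replicate block, with all 376 among them, and 272 without it. In B over control the 1850 became 3375 with the trend removed and 57 in the 4 libraries. In B over A the 2498 became 4354 and 460. For both stems over control the 691 became 55 with library totals, 1480 with no filter, 1248 with DESeq2's test, 36 with limma and 13 in the 4 libraries. Leaving out 1 library at a time gave 101 to 910 genes in A over control, 489 to 2088 in B over control, 1160 to 3197 in B over A and 7 to 1253 for both stems. The cause of these moves was not tested. The 4-library fits have fewer samples and also lack the libraries with red cell counts, which cannot be told apart.

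Of the 7 members, A over control had 0 called, and 1 in the A and control fit with the replicate block. B over control had 1, with 2 after trend removal, 0 in the 4 libraries and 0 to 1 without 1 library. B over A had 1, with 2 with no filter, the A and B libraries alone or the trend removed, 0 in the 4 libraries and 0 to 2 without 1 library. Both stems over control had 1, with 0 for library totals, no filter, limma, the replicate block, trend removal and the 4 libraries, and 0 to 1 without 1 library. With the replicate block over 9 libraries the adjusted p of ALAS1 for both stems was 0.0746. The blocks changed no other member's call.

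Small fold changes changed sign. In A over control the log2 fold change became -0.0041 for UROS with no filter, and -0.034 for ALAD, -0.024 for UROS and -0.088 for PPOX with the trend removed. Without 1 library UROS ran from -0.046 to 0.14 and CPOX from -0.16 to 0.023. In B over A PPOX ran from -0.10 to 0.14 without 1 library. For both stems over control CPOX became -0.027 and FECH -0.025 with no filter, CPOX -0.039 with the trend removed, and UROD 0.016 and CPOX -0.078 in the 4 libraries. Without 1 library UROD ran from -0.24 to 0.12, CPOX from -0.046 to 0.12 and FECH from -0.076 to 0.097. Of the shares, ALA-PDT minus control, with UROD left out ALAD became -0.203, UROS -0.272 and PPOX -0.0538 percentage points. Without 1 library the difference ran from -2.03 to 1.28 for CPOX and from -0.532 to 0.494 for FECH. The comparison of both stems could not be limited to 6 libraries. The mean FPKM moved by less than 1 SD with library totals or TMM.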
